A study of Mus musculus with 6 samples.

Results

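The granins and the enzymes that cut, trim and amidate neuropeptide precursors were followed as 10 genes out of 55357 genes in the read counts. These 10 genes were chosen by name from what their proteins do, with earlier results of these data known. They were the granins Chga, Chgb, Scg2 and Vgf, the granin-binding protein Scg3, the convertase chaperone Scg5, the convertases Pcsk1 and Pcsk2, the carboxypeptidase Cpe and the amidating enzyme Pam. Poly(A) RNA of mouse neurons in primary culture was sequenced in 6 libraries, from cells of cortex and hippocampus of wild-type C57BL/6N embryos at E18. At DIV4 (days in vitro), 3 cultures received a pLVTHM lentivirus expressing a scrambled control shRNA (shCtrl) and 3 received the same vector with the sh2 hairpin against Pla2g4e (shPla2g4e), and all were collected at DIV14. Pla2g4e encodes a calcium-dependent N-acyltransferase that makes N-acyl-phosphatidylethanolamines, and the comparison asks which transcripts differ when less of it is made. Both groups carried virus, and a hairpin of a single sequence stood for the knockdown. The sources used here do not say whether the libraries of a group came from separate dissections or litters, so p-values measure the spread between these libraries, which may be technical.

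Between 17054717 and 23570180 reads were counted per library, and the members had 1964 to 37537 reads each in a library, so that all 10 passed the filter of at least 6 reads in at least 1 library that left 21876 genes to test. Levels below are CPM, read counts relative to library size, scaled with edgeR's TMM factors, and changes are log2 fold changes of shPla2g4e against shCtrl from edgeR's quasi-likelihood test with Benjamini-Hochberg adjustment over all genes tested, called at an adjusted p of 0.01. Pla2g4e itself was at 38.0, 35.1 and 35.4 CPM in the control libraries, in the order of replicates 1 to 3 that is kept below, and at 21.8, 14.1 and 18.7 CPM in the knockdown libraries. The groups did not overlap, and the knockdown was partial, at a log2 fold change of −0.99 (SE 0.13, n = 3 per group, edgeR adjusted p = 1.24e-04). Over all genes, 543 were called higher and 876 lower, and with scaling by library size alone this became 796 higher and 609 lower.

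Granins are acidic proteins of the regulated secretory pathway. In the trans-Golgi network they aggregate with peptide precursors and help dense core vesicles to form, and many are themselves cut into active peptides. Inside the vesicle, the convertases cut precursors after pairs of basic residues, Cpe removes the basic residues left at the end, and Pam amidates peptides that end in glycine. Neurons of cortex and hippocampus release such vesicles when they fire repeatedly, and transcription of several of these genes is known to respond to activity and cAMP through the cAMP response element (CRE), TGACGTCA, near the start site.

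Because several members are known for that element, their promoters are shown first. A promoter window of 300 bases, from 250 bases before to 50 after the start site, was taken from RefSeq (build GRCm38.p6) for 8 of the 10 members, and the windows of Vgf and Cpe were not analysed here. The stretches below end at the base before the start site and read 5′ to 3′ on the strand of the gene. Capitals mark the full element TGACGTCA or, outside it, its part TGACG on either strand.
Scg2: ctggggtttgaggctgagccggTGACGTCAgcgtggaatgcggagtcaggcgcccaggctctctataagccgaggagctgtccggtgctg
Chgb: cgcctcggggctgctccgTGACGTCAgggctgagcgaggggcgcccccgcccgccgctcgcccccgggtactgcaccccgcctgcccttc
Pcsk1: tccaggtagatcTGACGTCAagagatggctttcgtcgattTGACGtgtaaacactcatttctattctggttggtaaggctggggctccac
Chga: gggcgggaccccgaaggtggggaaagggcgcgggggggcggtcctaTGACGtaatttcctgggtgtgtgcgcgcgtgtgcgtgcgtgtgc
Scg3: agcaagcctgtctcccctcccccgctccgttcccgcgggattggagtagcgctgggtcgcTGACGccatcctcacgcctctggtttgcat
Pam: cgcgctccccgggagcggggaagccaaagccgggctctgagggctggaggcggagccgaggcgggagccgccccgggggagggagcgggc

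These stretches lie at chr1:79440027-79440116 on the minus strand for Scg2, chr2:132781552-132781641 on the plus strand for Chgb and chr13:75089767-75089856 on the plus strand for Pcsk1. Those of Chga, Scg3 and Pam lie at chr12:102554851-102554940 on the plus strand, chr9:75684057-75684146 on the minus strand and chr1:98095647-98095736 on the minus strand. The full element stood in 3 members, 68 bases before the start site in Scg2, 72 in Chgb and 78 in Pcsk1. It occurs in 588 of 32851 RefSeq promoter windows of this length (1.79%). The part TGACG alone was found in Chga, Scg3, Pcsk2 and Scg5, against 20.8% of windows that hold the part with or without the full element, and neither of the 2 overlapping windows of Pam held it. A match to these letters is not a measured site, and binding was not measured in these cultures.

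Of the 10 members, 4 were called higher in the shPla2g4e cultures, where 2.48% of all genes tested were, and 0 were called lower, where 4.00% of all genes were. Since the members were chosen with earlier results known, comparisons with such shares are not independent of these data. At an unadjusted p under 0.05, edgeR gave 6 members higher and 0 lower, against 12.8% and 12.9% of all genes tested. Limma called 4 higher and 0 lower, against 2.30% and 4.23% of all genes, and DESeq2 called 5 and 0, against 4.20% and 7.42% of the genes with an adjusted p. The 4 were the granins Vgf and Scg2, the granin-binding protein Scg3 and the amidating enzyme Pam, with changes from 1.47-fold to 1.84-fold. Chgb, both convertases and Cpe were not called and differed by less than the spread between libraries. In 5 members every shPla2g4e library was above every shCtrl library, against 15.5% of all genes, and in 0 members was every shPla2g4e library below, against 14.6%. With a replicate block, which treats libraries of the same number as pairs, 6 members were called higher and 0 lower, where 6.50% and 9.02% of all genes were. By estimate 8 members were higher and 2 lower, the median log2 fold change of the members was 0.35, and that of all genes tested was 0.03. Together the members took 0.421% to 0.449% of the counted reads of a shCtrl library and 0.598% to 0.625% of those of a shPla2g4e library. In these bulk cultures, fewer cells of a type and less RNA per cell cannot be told apart, nor can more cells and more RNA per cell.

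**Figure D1:**
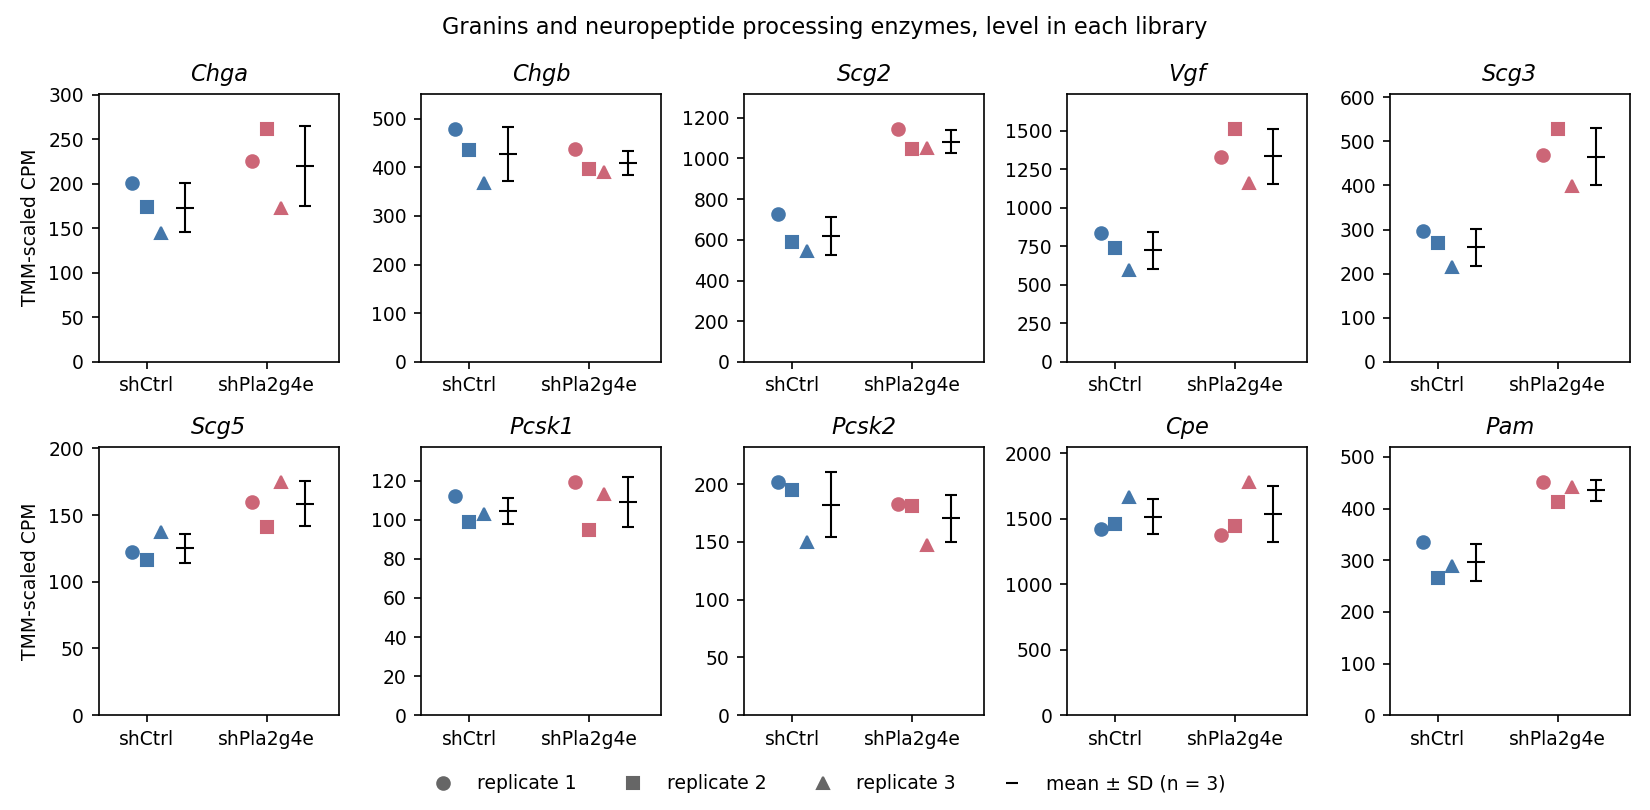
The level of each of the 10 members is plotted in TMM-scaled CPM (vertical axis, from 0) for every shCtrl (blue) and shPla2g4e (red) library, with the replicate number as the symbol and the mean ± SD of 3 libraries beside the points. The groups are apart in Scg2, Vgf, Scg3, Pam and, narrowly, Scg5, and they overlap in Chga, Chgb, Pcsk1, Pcsk2 and Cpe.

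Vgf, whose precursor gives rise to peptides with roles in synaptic plasticity and energy balance, had the highest estimate among the members, although those of Scg3 and Scg2 were within its SE and that of Scg2 was above it without shPla2g4e replicate 2 (0.83 against 0.78). The gene (ENSMUSG00000037428.15) lies on chromosome 5, 137055246 to 137062205, plus strand, in GRCm39, the build of the gene positions given here. Its shCtrl libraries had 835, 739 and 598 CPM, and its shPla2g4e libraries had 1329, 1516 and 1159.9 CPM. The lowest shPla2g4e library was thus above the highest shCtrl library, and replicate 3 was the lowest of its group on either side. The means were 724 ± 119 CPM (SD, n = 3) and 1335 ± 178 CPM (SD, n = 3), a log2 fold change of 0.88 (SE 0.12, edgeR adjusted p = 1.19e-04).

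Scg2, the precursor of secretoneurin, was close behind. This gene (ENSMUSG00000050711.8) lies on chromosome 1, 79412386 to 79417837 on the minus strand. Its level was 725, 589 and 546 CPM in shCtrl replicates 1 to 3 and 1147, 1047 and 1051 CPM in the shPla2g4e libraries of the same numbers. The gap between the groups was larger than the range within either of them. From 620.1 ± 93.6 CPM (SD, n = 3) the mean went to 1082 ± 56.5 CPM (SD, n = 3), a log2 fold change of 0.80 (SE 0.099, edgeR adjusted p = 6.33e-05). Scg2 is a member with the full element in its promoter.

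Chgb, an abundant granin that is cut into many fragments, holds the same element at about the same distance and was not called. The gene (ENSMUSG00000027350.9) lies on chromosome 2, 132623198 to 132636999 on the plus strand. Its libraries had 479.7, 435 and 368 CPM in shCtrl and 437, 397 and 391 CPM in shPla2g4e cultures, and the shPla2g4e values lay inside the shCtrl range. The log2 fold change was −0.07, with a 95% interval of −0.27 to 0.14 (edgeR adjusted p = 0.733), and its sign turned to 0.01 when libraries were scaled by size alone and to 0.02 without shCtrl replicate 1.

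Chga, whose product is cut to pancreastatin, catestatin and other peptides, lay between these. The gene (ENSMUSG00000021194.7) is on chromosome 12, 102521228 to 102531287 on the plus strand. Control cultures had 201, 174 and 145 CPM of it and shPla2g4e cultures 226, 262 and 173 CPM. The shPla2g4e library numbered 3 fell inside the shCtrl range, while each shPla2g4e library was above the shCtrl library of its own number, by 0.17, 0.59 and 0.25 on the log2 scale. The log2 fold change was 0.35 (SE 0.13, 95% interval 0.07 to 0.63), which did not pass the test over all genes (edgeR adjusted p = 0.104). It passed with the replicate block (adjusted p = 5.18e-05) and without shPla2g4e replicate 3 (log2 fold change 0.50, adjusted p = 0.00524). The log2 fold change was 0.21 (adjusted p = 0.395) without shPla2g4e replicate 2 and 0.23 (adjusted p = 0.314) without shCtrl replicate 3.

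Scg3 encodes a cholesterol-binding protein that holds chromogranin A at the vesicle membrane, and it moved with Vgf and Scg2 in size. The gene (ENSMUSG00000032181.8) lies on chromosome 9, 75550471 to 75591338 on the minus strand. Its shCtrl libraries had 296, 270.1 and 214 CPM and its shPla2g4e libraries 469.5, 529 and 398 CPM. The groups did not overlap, although the gap between them was smaller than the range within the shPla2g4e group, and replicate 3 was again the lowest in each. The means of 260.1 ± 42.0 CPM and 466 ± 65.7 CPM (SD, n = 3 each) gave a log2 fold change of 0.84 (SE 0.12, edgeR adjusted p = 1.96e-04).

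Scg5 encodes a neuroendocrine chaperone that Pcsk2 needs to become active. The gene (ENSMUSG00000023236.8) lies on chromosome 2, 113606707 to 113659466 on the minus strand. Its level was 122, 116 and 137 CPM in shCtrl and 159.9, 141 and 175 CPM in shPla2g4e libraries. The groups did not overlap, but the lowest shPla2g4e library stood just above the highest shCtrl library. The log2 fold change of 0.35 (SE 0.094, 95% interval 0.15 to 0.55) was past the threshold of 0.05 and not that of 0.01 (edgeR adjusted p = 0.0221). With the replicate block it passed (adjusted p = 2.53e-05), and over 16 alternatives its adjusted p ranged up to 0.138 and was under 0.01 in 5.

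Neither convertase that cuts precursors was called. Pcsk1 (ENSMUSG00000021587.6, chromosome 13, 75237945 to 75282980, plus strand), which acts early in the secretory pathway, had 112, 98.8 and 103 CPM in shCtrl and 119.5, 95 and 113 CPM in shPla2g4e libraries. The shPla2g4e group held the highest and the lowest value of all 6 libraries, and the log2 fold change was 0.06 (95% interval −0.14 to 0.26, edgeR adjusted p = 0.753). Pcsk2 (ENSMUSG00000027419.10, chromosome 2, 143388076 to 143658205, plus strand), which acts later in the vesicle, had 202, 195 and 149.8 CPM in shCtrl and 183, 181 and 147 CPM in shPla2g4e libraries. In either group replicate 3 was well below the other replicates, and the log2 fold change was −0.10 (95% interval −0.34 to 0.14, edgeR adjusted p = 0.652), with −0.22 without shCtrl replicate 3 and −0.00 without shPla2g4e replicate 3. Of the exon bases of Pcsk2, 4.54% overlap Pcsk2os1 and Pcsk2os2 on the other strand, and since reads were counted without a strand option, of these genes could not be told apart there. The intervals of both convertases leave out a change as large as the 1.47-fold of Pam.

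Cpe was the most abundant member and the one whose estimate was nearest to 0. This carboxypeptidase (ENSMUSG00000037852.9, chromosome 8, 65045576 to 65146088, minus strand) had 1422, 1458 and 1667 CPM in shCtrl and 1377, 1448 and 1783 CPM in shPla2g4e libraries. Replicate 3 was the highest of each group. The log2 fold change was 0.02 (95% interval −0.20 to 0.23, edgeR adjusted p = 0.938).

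Pam, the enzyme that amidates the ends of peptides such as neuropeptide Y and cholecystokinin, was the enzyme of the set that rose. The gene (ENSMUSG00000026335.17) lies on chromosome 1, 97722839 to 98023371 on the minus strand, and 1.58% of its exon bases overlap another gene on the same strand. The libraries had 335, 265 and 288 CPM in shCtrl and 452, 413 and 441 CPM in shPla2g4e cultures, with a clear gap between the groups. From 296 ± 36.0 CPM (SD, n = 3) the mean went to 435 ± 20.3 CPM (SD, n = 3), a log2 fold change of 0.56 (SE 0.091, edgeR adjusted p = 7.12e-04). Leaving out shCtrl replicate 2 gave a log2 fold change of 0.48 and an adjusted p of 0.0123, just over the threshold, whereas Vgf, Scg2 and Scg3 were called in each of the 16 alternatives.

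**Figure D2:**
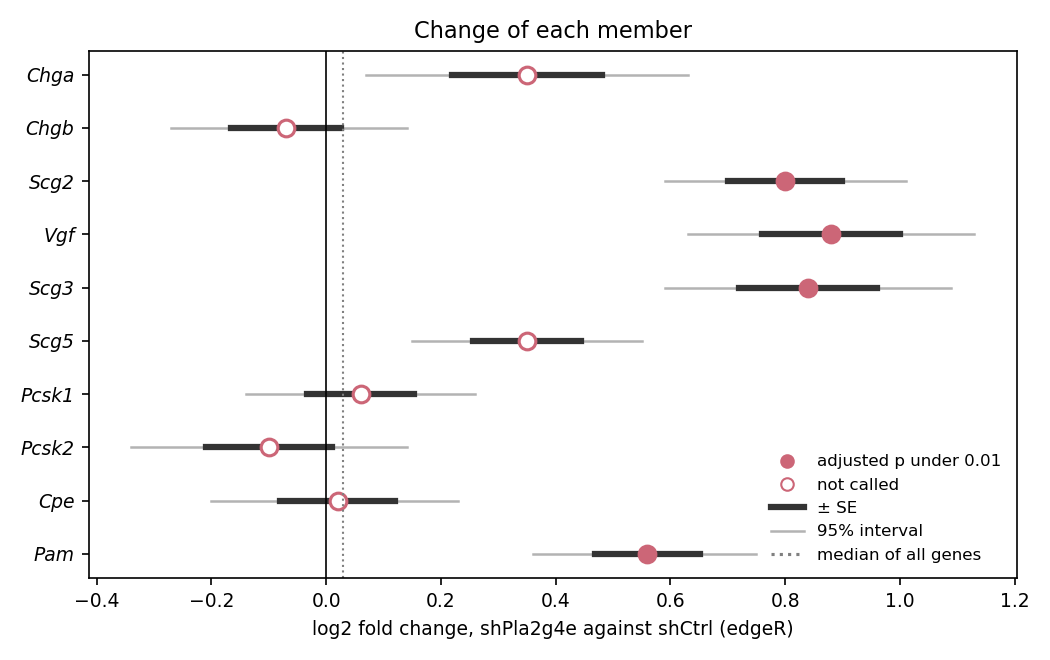
The log2 fold change of each member, shPla2g4e against shCtrl, is plotted on the horizontal axis with its SE (thick bar) and 95% interval (thin bar), and filled points have an edgeR adjusted p under 0.01. Vgf, Scg3, Scg2 and Pam lie between 0.56 and 0.88, Chga and Scg5 share an estimate of 0.35, and the intervals of Chgb, Pcsk1, Pcsk2 and Cpe include 0.

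To compare members with each other, CPM were divided by the exon length in the counts. In shCtrl cultures the order of these levels was Cpe with 581 ± 50.5 CPM per kb (SD, n = 3), Scg2 with 247 ± 37.2, Vgf with 244 ± 40.0, Chgb with 156 ± 20.5, Scg3 with 95 ± 15.3, Scg5 with 79.5 ± 6.89, Chga with 62.8 ± 10.2, Pam with 24.9 ± 3.02, Pcsk2 with 23.0 ± 3.58 and Pcsk1 with 18.7 ± 1.24 CPM per kb. Scg2 and Vgf overlapped between libraries, as did Scg3 and Scg5, Pam and Pcsk2, and Pcsk2 and Pcsk1, while the other neighbours were apart. Thus cargo-like granins and Cpe stood above the enzymes, and Cpe was higher than 99.9% of the genes tested, with Pcsk1 above 87.1%. In shPla2g4e cultures Scg3, at 170.0 ± 24 CPM per kb, stood above Chgb, at 149 ± 9.19, although their libraries overlapped, and Vgf, at 449 ± 59.9, stood next to Scg2, at 430.1 ± 22.5 CPM per kb. The levels of Pam, at 36.6 ± 1.70 CPM per kb, no longer overlapped those of Pcsk2, at 21.5 ± 2.59.

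**Figure D3:**
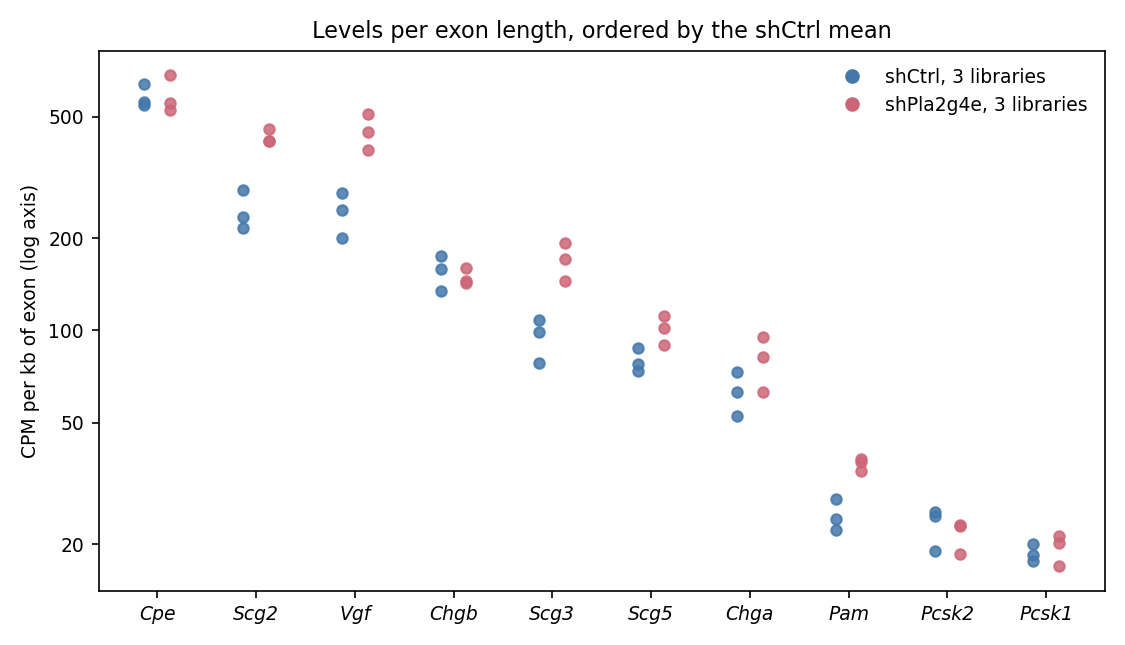
Levels per exon length (CPM per kb, log axis) are plotted for the 3 shCtrl (blue) and 3 shPla2g4e (red) libraries of each member, in the order of the shCtrl means. The members span from 18.7 CPM per kb for Pcsk1 to 581 for Cpe in shCtrl cultures, and Scg3 stands above Chgb by its mean in shPla2g4e cultures only.

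Ratios within a library do not depend on its scaling, and 6 were compared with an exact two-sided permutation test, which with 3 against 3 libraries cannot give a p under 0.1. The log2 ratio of Scg2 to Chgb was 0.60, 0.44 and 0.57 in shCtrl replicates 1, 2 and 3 and 1.39, 1.40 and 1.43 in shPla2g4e replicates 1, 2 and 3. It was nearly the same in each shPla2g4e library, and the difference of 0.87 was many times the spread of either group (exact p = 0.1, adjusted over the 6 ratios 0.2). The log2 ratio of Scg3 to Chga differed by 0.50, from 0.59 ± 0.042 to 1.09 ± 0.10 (SD, n = 3 each), and that of Chga to Chgb by 0.40, from −1.31 ± 0.047 to −0.91 ± 0.29, again with no overlap (exact p = 0.1, adjusted 0.2, for either). Without shPla2g4e replicate 2 the difference of Chga to Chgb was 0.24. Among the enzymes and their partners the libraries overlapped. Pcsk1 against Pcsk2 differed by 0.15 (exact p = 0.6, adjusted 0.72), and Scg5 against Pcsk2, its client, by 0.44 (exact p = 0.3, adjusted 0.45). Between libraries of the same number, however, Scg5 against Pcsk2 differed by 0.53, 0.40 and 0.39, higher in each of the 3 pairs. An exact sign-flip test over pairs gave p = 0.25, the smallest that 3 pairs allow, for this ratio and for each of the others but Pcsk1n against Pcsk1 (p = 0.75). Pcsk1n, the precursor of an inhibitor of Pcsk1, differed from Pcsk1 by −0.05 (exact p = 0.8, adjusted 0.8).

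The genes around the members were taken as 5 lists of known function. Over all genes tested, edgeR called 2.48% higher and 4.00% lower, and the counts of each list stand beside these shares. At an unadjusted p under 0.05 the shares were 12.8% and 12.9%, and with the replicate block 6.50% and 9.02%. Limma called 2.30% higher and 4.23% lower, and DESeq2 4.20% and 7.42% of the genes with an adjusted p. Among 22 other processing genes (further convertases and carboxypeptidases, cathepsins, cyclases of glutamine, copper transporters that feed Pam, and peptide-degrading enzymes), 0 were called in either direction, and their median log2 fold change was 0.00. At an unadjusted p under 0.05 edgeR gave 3 higher and 4 lower, and limma called 0 and DESeq2 1 lower. The smallest p-values belonged to the convertase Pcsk6, at 12.7 ± 1.59 CPM in shCtrl and 8.58 ± 0.723 CPM in shPla2g4e cultures (log2 fold change −0.56, edgeR adjusted p = 0.0176), the carboxypeptidase Cpd (−0.36, adjusted p = 0.0299) and the convertase Pcsk4 (−0.43, adjusted p = 0.0438). Pcsk1n had 217 ± 9.54 CPM and 217 ± 7.19 CPM (SD, n = 3 each, log2 fold change 0.00, adjusted p = 0.983). With the replicate block 2 genes of this list were called higher and 4 lower, and these 4 held Pcsk6 (adjusted p = 8.32e-04), Cpd (2.33e-05) and Pcsk4 (0.00591).

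Of 22 genes of dense core vesicle formation, Ptprn was called higher and Arfip2 lower, with a median of 0.01. Ptprn, a phosphatase-like protein of the dense core vesicle membrane, had 469, 440.3 and 410.3 CPM in shCtrl and 624, 634 and 686 CPM in shPla2g4e libraries. Its log2 fold change was 0.56 (edgeR adjusted p = 2.66e-04), the size of that of Pam. Arfip2, a membrane-binding partner of small GTPases at the Golgi, had 114 ± 6.43 CPM in shCtrl and 84.6 ± 3.48 CPM in shPla2g4e cultures (SD, n = 3 each, log2 fold change −0.43, adjusted p = 0.00168). The small GTPase Arf4 was next, at 0.34 on the log2 scale (adjusted p = 0.0179, and 9.54e-05 with the replicate block). Blocked, the list had 3 genes called higher and 2 lower.

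The 35 genes of vesicle transport and release included 6 called lower and 0 called higher, with a median of −0.14. At an unadjusted p under 0.05 edgeR gave 13 lower and 3 higher, and limma and DESeq2 each called 7 lower and 0 higher. Doc2b, a calcium sensor of release, had 60, 57.1 and 50.7 CPM in shCtrl and 25.1, 22.1 and 29.7 CPM in shPla2g4e libraries. That is a log2 fold change of −1.13 (edgeR adjusted p = 7.55e-06). Rims1, an active zone scaffold, fell by 0.76 on the log2 scale (adjusted p = 6.52e-05), and Cadps2, which primes dense core vesicles for release, fell by 1.55 (adjusted p = 8.90e-04). In Cadps2 the libraries of shPla2g4e cultures varied widely, with 17.1, 5.69 and 19.2 CPM against 38.7 to 42.9 CPM in shCtrl. The others, named after their values were seen, were Stx1a and Cplx1, of the fusion machinery, and Doc2a, with changes of −0.40, −0.39 and −0.58. Leaving out shCtrl replicate 1, shCtrl replicate 2 or shPla2g4e replicate 1 left 3 of this list called, and the block gave 13 lower and 3 higher. Several of these proteins also serve synaptic vesicles.

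Of 38 genes for peptide precursors and other vesicle cargo, 34 passed the filter, with Avp, Oxt, Nmu and Iapp below it. Here 8 were called higher and 1 lower, 29 of 34 were higher by estimate, and the median log2 fold change was 0.44. Pdyn, the dynorphin precursor, had 6.60, 7.05 and 7.28 CPM in shCtrl and 26.2, 26.6 and 23.6 CPM in shPla2g4e libraries (log2 fold change 1.87, edgeR adjusted p = 1.68e-07). Cck, the cholecystokinin precursor, had 138, 148 and 138 CPM against 307, 311 and 298 CPM (1.11, adjusted p = 2.61e-07). For Npy, the neuropeptide Y precursor, the means were 25.3 ± 3.20 CPM and 60.6 ± 3.14 CPM (SD, n = 3 each, log2 fold change 1.26, adjusted p = 1.30e-06). In all 3 genes the groups were far apart. The other genes called, named after their values were seen, were Penk, Crhbp, Sst, Nts and Tac2, with log2 fold changes of 1.37, 1.70, 0.66, 1.30 and 1.19, and Nxph1, which was lower at −0.54. Blocked, 16 were called higher and 1 lower.

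Since Vgf and Scg2 are known to be induced by activity, 23 activity-regulated genes were set beside them. Of these, 6 were called higher and 0 lower, with a median of 0.27. An unadjusted p under 0.05 was reached by 12 higher and 3 lower in edgeR, and limma and DESeq2 called 6 and 8 higher and 0 lower. Dusp1, a MAP kinase phosphatase, had 36.2, 31.0 and 34.2 CPM in shCtrl and 68.3, 76.6 and 70.2 CPM in shPla2g4e libraries (log2 fold change 1.08, edgeR adjusted p = 1.72e-06). The antiproliferative gene Btg2 had a log2 fold change of 0.91 (adjusted p = 3.90e-04) and the clock gene Per1 of 0.62 (adjusted p = 4.20e-04). Fos, Fosb and Nr4a1, named after their values were seen, were called at 0.53, 0.88 and 0.47. The 5 genes lower by estimate, also named after their values were seen, were not called. They were Egr3, Npas4, Egr1, Egr2 and Egr4, with log2 fold changes of −0.42, −0.41, −0.28, −0.26 and −0.19, and the early genes Arc, at 0.21, and Homer1, at 0.01, were not called either. By estimate 18 of the 23 were higher. Blocked, 11 were called higher and 3 lower (Egr1, Egr3 and Npas4), where 6.50% and 9.02% of all genes were. Whether activity differed between the cultures was not tested.

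**Figure D4:**
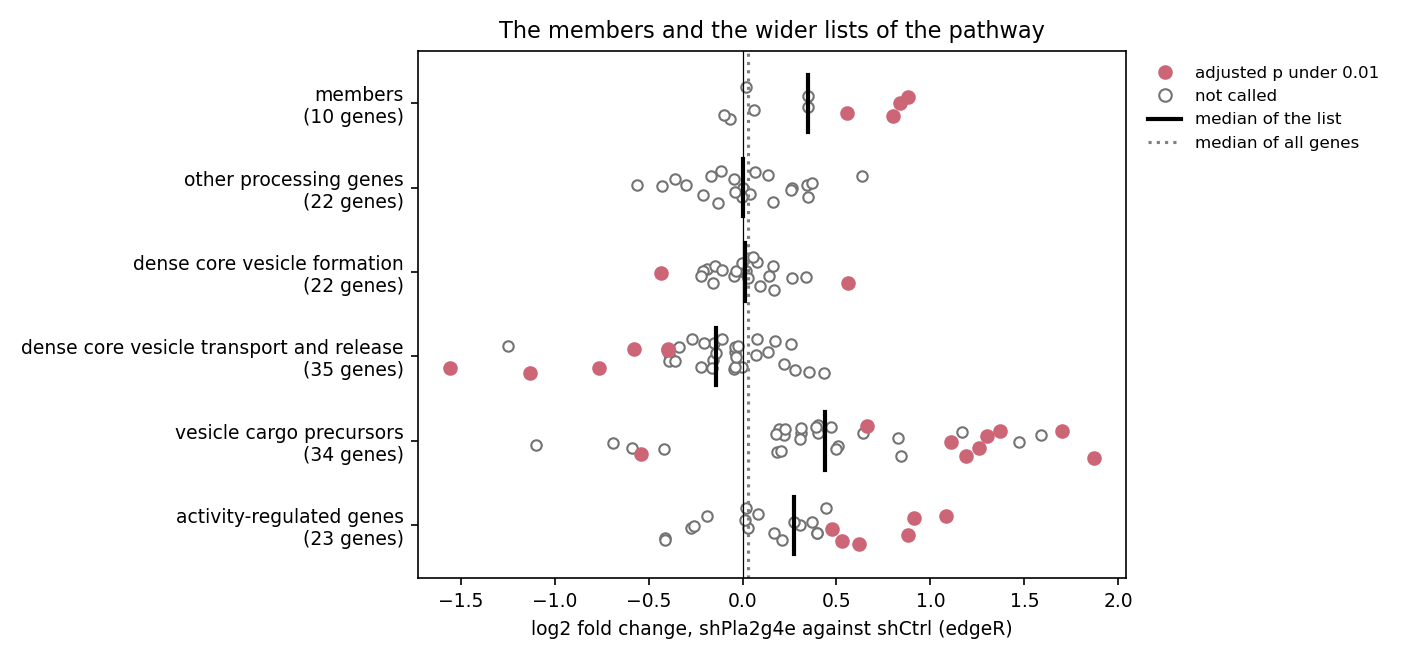
Each point is the log2 fold change (shPla2g4e against shCtrl, horizontal axis) of a gene tested, grouped as the 10 members and the 5 wider lists, with filled points at an edgeR adjusted p under 0.01, a black bar at the median of the list and a dotted line at the median of all genes (0.03). The medians are 0.35 for the members, 0.44 for vesicle cargo and 0.27 for activity-regulated genes, and −0.14 for transport and release.

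**Figure D5:**
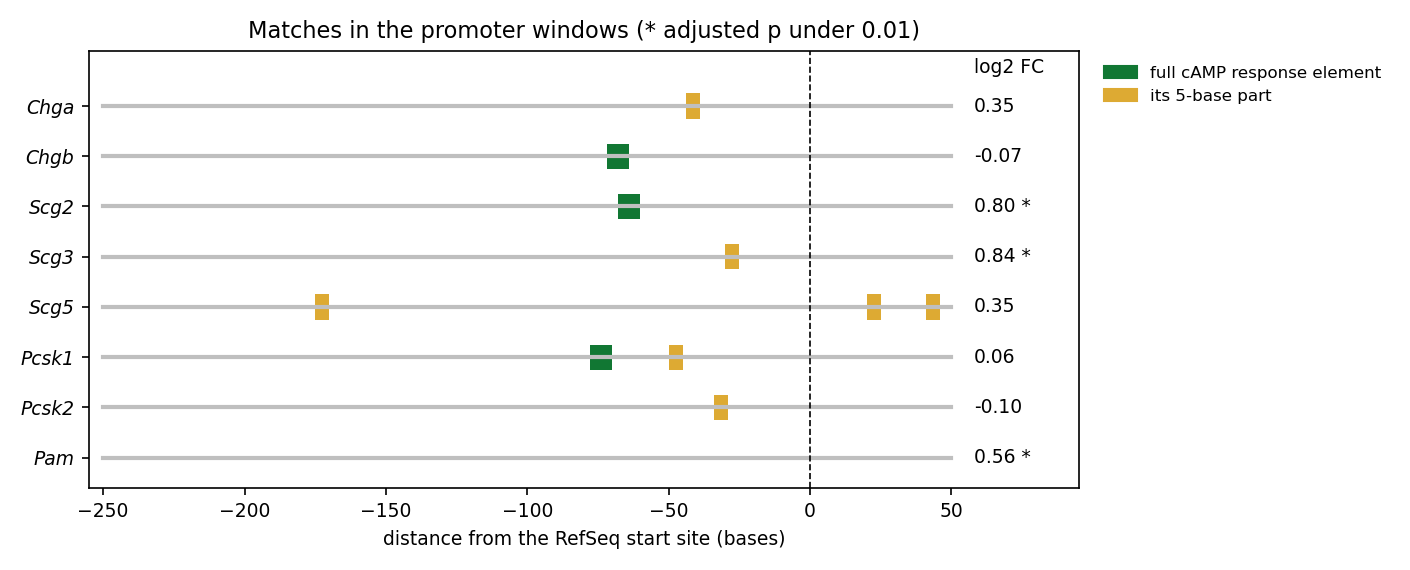
The promoter windows of the 8 members analysed for them are drawn by distance from the start site in bases, with the full cAMP response element in green, its part of 5 bases in yellow and the log2 fold change of the member at the right. The full element is seen in Scg2, at a log2 fold change of 0.80, and in Chgb and Pcsk1, at −0.07 and 0.06.

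The markers of the cells in the cultures give the setting of these values. Their counts stand beside the same shares of all genes tested, 2.48% called higher and 4.00% lower by edgeR, and 6.50% and 9.02% with the replicate block. All 15 pan-neuronal markers were present, with 2 called higher (Nefl, Nefm) and 3 lower (Rbfox3, Map2, Nefh), and with the replicate block 3 higher and 4 lower. Among 15 glutamatergic markers 2 were called higher (Slc17a6, Rorb) and 3 lower (Slc17a7, Neurod6, Nrgn), with the block 3 and 6, and their summed level was 3696 to 4239 CPM in shCtrl and 2877 to 3242 CPM in shPla2g4e libraries. Among 15 GABAergic markers 2 were called higher, Npy and Sst, which are also cargo genes above. The 4 called lower included Slc32a1, Lhx6 and Reln, and with the block 3 were called higher and 5 lower. Of 12 astrocyte markers, Aqp4, Gja1 and Slc1a2 were called lower and 0 higher (6 and 1 at an unadjusted edgeR p under 0.05, and 2 and 0 called by DESeq2, 3 and 0 by limma), with sums of 3017, 3419 and 3861 CPM for shCtrl and of 2244, 2089 and 3292 CPM for shPla2g4e replicates. With the replicate block 8 of the 12 were called lower and 1 higher. The astrocyte sum was highest in replicate 3 of each group, where Vgf, Scg3, Chga, Chgb and Pcsk2 were lowest and Cpe and Scg5 were highest. The part of these markers in the members' values was not tested.

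Markers of other cells had 0 called genes in the edgeR and limma tests, while DESeq2 called 1 chromaffin marker higher. With the replicate block Olig2 (adjusted p = 5.28e-04), of the oligodendrocyte lineage, and C1qc (6.45e-04), of microglia, were called lower. Kdr (8.91e-05) and Col1a1 (4.56e-04), of mural and endothelial cells, and Th (2.00e-04), of chromaffin cells, were called higher in that fit. At an unadjusted p under 0.05 edgeR gave 1 lower for oligodendrocyte lineage, 1 higher and 3 lower for microglia, 2 higher for mural and endothelial and 1 higher for chromaffin and pituitary markers. Microglia markers summed to 23.7 to 35.2 CPM in shCtrl and 25.3 to 26.7 CPM in shPla2g4e libraries, with Tmem119 and Itgam below the filter. Of the 10 tested, 8 were lower and 2 higher by estimate, with a median log2 fold change of −0.68. Their smallest p-values belonged to C1qc, P2ry12 and C1qa, with low shCtrl means of 1.77, 0.315 and 1.88 CPM. Mural and endothelial markers summed to 90.2 to 136 CPM and 100.4 to 150.4 CPM, with Cldn5 and Kcnj8 at 0 in every library, and oligodendrocyte lineage markers to 572 to 649 CPM and 591 to 725 CPM. For chromaffin and anterior pituitary cells, which make granins in abundance, the markers Phox2a, Lhb and Fshb were at 0 in every library. The sum of these markers was 7.15 to 7.71 CPM in shCtrl and 10.4 to 14.2 CPM in shPla2g4e cultures, far below the level of any member.

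An shRNA can also lower transcripts that pair with its seed, bases 2 to 8 of the guide strand. The guide strand of sh2, with its seed in capitals, is shown here because its seed can be searched for in the members.
sh2 guide: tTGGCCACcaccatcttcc

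The 19-base target of this guide lies in the coding sequence of Pla2g4e, in exon 11 of 20 of its coding transcript, at chr2:120182753-120182771 on the minus strand of GRCm38. The matching site in an mRNA is GTGGCCA, which occurs in an annotated 3′ UTR of 2289 of the 15697 tested genes with a 3′ UTR in GENCODE vM21 (14.6%). In the annotated 3′ UTRs of the 10 members it occurred 0 times, and in coding sequences it was found in Chgb, with 2 sites, and not in the other members. Whether these letters are bound by the guide was not measured.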

How the data were processed

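The authors checked reads of the 6 poly(A) libraries, made with a stranded kit, with FastQC 0.11.8, aligned them with STAR 2.7.0d and counted those on exons with featureCounts 1.6.0 without a strand option. The deposited values are these raw read counts per gene, 1 file per library. The methods name mm10, whereas the deposited counts carry GRCm39 coordinates. Symbols were matched for 52081 of 55357 genes through GENCODE vM21. Genes that reached 6 reads in any library were tested with edgeR 4.0.16 in R 4.3.3 (TMM, quasi-likelihood). The alternatives were limma 3.58.1 after voom (the test of the methods), DESeq2 1.42.0, other scalings, no filter and stricter filters, pairing by a replicate block, robust estimation, calls at 0.05, and fits that omit a library. Scripts were tested on simulated data. The SE came from the F statistic, and SciPy 1.17.1 gave the exact tests.

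Over the 10908 genes whose mean log2 CPM reached 3, deviations from group means correlated at 0.392, 0.189 and 0.461 between libraries that the labels number alike, and at −0.393 to 0.108 between others. The numbers were therefore treated as pairs in the replicate block and in the paired differences of ratios. The fit as reported took no account of pairs. A chi-square per gene of 6.06 to 15.6 between libraries of a group showed no library deposited again.

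Members and lists were chosen with earlier results of these data known. Named are all members, Pla2g4e, Pcsk1n, the 3 smallest p-values of each wider list and marker lists as counts, beyond which genes were named after their values were seen. Protein features that had been planned were not analysed here. Some marker genes are not reported here.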

Additional observations from a re-analysis of the deposited data

How the results depend on the processing

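Among the members, Vgf, Scg2 and Scg3 stayed called in all 16 alternatives and Pam in 15, with Pam at an adjusted p of 0.0123 without shCtrl replicate 2. Leaving out each library in turn gave 3 to 5 members called. With the replicate block, which treats libraries of the same number as pairs, the calls of Chga (adjusted p = 5.18e-05) and Scg5 (2.53e-05) changed, and no other member's did. That fit had 63.1 prior degrees of freedom, against 11.7 in the fit as reported. Scg5 was also called with DESeq2 (0.0068), library size alone (0.00706), no filter (0.00144) and without shPla2g4e replicate 2 (0.00905), and Chga with no filter (0.00104) and without shPla2g4e replicate 3 (0.00524). Estimates near 0 changed sign in a few alternatives. Leaving out a library, Chgb ranged from −0.16 to 0.02 (above 0 without shCtrl replicate 1), Pcsk1 from −0.01 (without shPla2g4e replicate 1) to 0.15, Pcsk2 from −0.22 to −0.00, Chga from 0.21 to 0.50, and Cpe from −0.10 to 0.09, with −0.02 and −0.01 without shCtrl replicates 1 and 2 and the lowest without shPla2g4e replicate 3. The difference in the log2 ratio of Pcsk1n to Pcsk1 ranged from −0.17 to 0.04 (without shPla2g4e replicate 1), that of Pcsk1 to Pcsk2 from 0.02 (without shPla2g4e replicate 3) to 0.29, that of Scg5 to Pcsk2 from 0.26 (without shPla2g4e replicate 3) to 0.64, and that of Chga to Chgb from 0.24 (without shPla2g4e replicate 2) to 0.54. Paired differences of the ratios were added after seeing the data. With library size alone Chgb was at 0.01.

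Over all genes, 1419 were called as reported, 2349 with no filter, 3395 with the replicate block and 2813 at a threshold of 0.05. Leaving out a library gave 695 (without shCtrl replicate 2) to 1613 (without shPla2g4e replicate 3), with 854 without shPla2g4e replicate 1, 928 without shCtrl replicate 1 and 931 without shPla2g4e replicate 2. With the replicate block, 6 of the other processing genes, 5 of vesicle formation, 16 of transport and release, 17 of cargo and 14 of activity-regulated genes were called. Leaving out a library gave 0 to 1 (1 without shCtrl replicate 3), 2 to 3, 3 to 6, 6 to 12 and 5 to 9 of these lists, in that order. The cause was not tested. With 3 libraries per group, intervals of about 0.2 to 0.3 on either side of a log2 fold change limit what can be told for Chgb, Pcsk1, Pcsk2 and Cpe.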
